A study of Mus musculus with 22 samples.

Results

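GATA1-LSK cells, the stem and progenitor cells of the mouse bone marrow that do not show a GATA1 reporter, were compared with common myeloid progenitors (CMP) on 8 of the 22 Illumina bead arrays of the study, 4 per population. All 22 arrays came from bone marrow of C57BL/6 mice carrying the GATA1-GFP transgene, 8 weeks old, and the other arrays held GATA1+LSK, LMPP and LT-HSC cells. The 8 arrays were chosen by their titles, and the comparison ran over the 11118 genes with a probe that was detected (detection p under 0.05) on at least 4 of the 22 arrays. The labels name the populations without their sorting gates, do not say whether CMP were selected on the reporter, and do not say whether replicates came from separate mice, so p-values measure only the spread between these arrays. No slide held both populations. GATA1-LSK replicates 1 to 3 lay on slide 1 and replicate 4 on slide 3, whereas CMP replicates 1 and 2 lay on slide 2 and replicates 3 and 4 on slide 4, so population and slide cannot be told apart directly.

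LSK cells lack markers of mature blood lineages and carry Sca-1 and c-Kit, and this compartment holds the stem cells and the multipotent progenitors of the marrow. Common myeloid progenitors have lost Sca-1 and give rise to granulocytes, monocytes, red cells and platelets but not to lymphocytes. GATA1 is the zinc finger transcription factor of the red cell, platelet, mast cell and eosinophil lineages, and PU.1, encoded by Spi1, is its counterpart in granulocytes and monocytes. Stem cells are known for deep quiescence, in which the cyclin-dependent kinase inhibitor p57 takes part, and for a group of imprinted growth regulators.

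Levels are normalised log2 signals, a difference of 1 on that scale is a 2-fold change, and errors of differences are standard errors from a limma model of all 22 arrays. At an adjusted p under 0.05, 853 of the 11118 genes (7.67%) differed. Of these, 581 (5.23% of all genes) were higher in GATA1-LSK and 272 (2.45%) were higher in CMP, and 477 and 204 of them differed by at least 2-fold. When arrays were scaled to their medians instead of quantile normalised, 130 genes were higher in GATA1-LSK and 218 higher in CMP, and the median difference of all genes moved from 0.01 to -0.23. The 4 arrays of one population did not overlap the 4 of the other for 1656 genes (14.9%), among them 784 of the called genes. Of the 89 called genes of the naming rule, 31 lost their call under median scaling: Aurkb, Cdk1, Dlk1, Fam110c, Fosb, Gbp3, Gp9, Hes1, Hey1, Hoxa5, Ifit3, Ifitm1, Il6st, Klf2, Mad2l1, Meis1, Mmrn1, Ndc80, Oasl2, Prdm16, Rbl1, Rrm1, Rsad2, Tal1, Tfr2, Thy1, Txnip, Vdr, Ypel3, Zeb2 and Zyx. By at least 8-fold, 45 called genes were higher in GATA1-LSK and 9 higher in CMP.

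**Figure D1:**
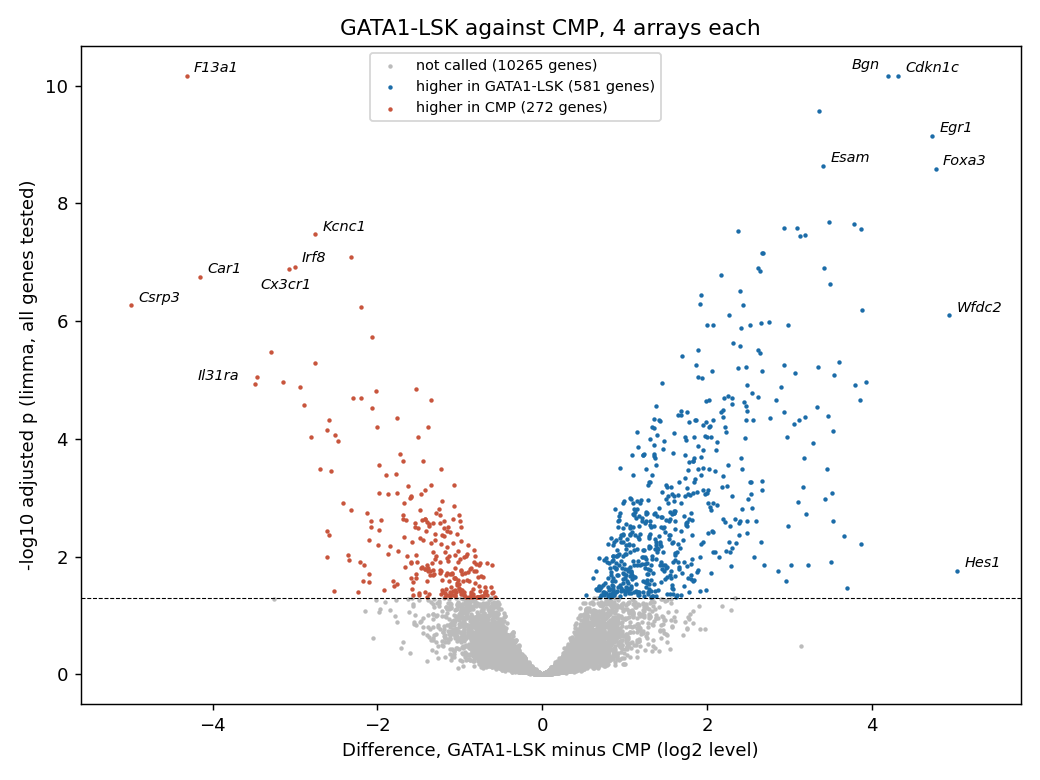
Difference between GATA1-LSK and CMP (x axis, log2 level) against the adjusted p of limma (y axis, -log10) for all 11118 genes, 1 point per gene, with the dashed line at an adjusted p of 0.05. The 581 blue genes were higher in GATA1-LSK and the 272 red genes higher in CMP. Cdkn1c, Bgn and F13a1 stand farthest from the dashed line, and Hes1 lies far to the right at 5.03 but close above the line.

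The mean raw signal ranged from 191 to 309 on the GATA1-LSK arrays and from 199 to 395 on the CMP arrays, with 15115 to 16650 and 14384 to 17839 probes detected. Across genes, arrays correlated at r = 0.962 to 0.985 within GATA1-LSK, 0.946 to 0.987 within CMP and 0.929 to 0.959 between them. The first principal component of the 8 arrays held 45.9% of the variance and separated the populations, and the second (22.1%) separated slides 1 and 2 from slides 3 and 4. Because of the slides, differences were also bridged through another population that shared slides with both: LMPP on slides 1 and 4, and GATA1+LSK on slides 3, 2 and 4. Of the 853 called genes, 845 (99.1%) kept their sign through LMPP and 836 (98.0%) through GATA1+LSK, against 71.5% and 72.7% of all genes. The LMPP bridge takes GATA1-LSK from slide 1 and CMP from slide 4. The GATA1+LSK bridge takes GATA1-LSK from slide 3 and CMP from slides 2 and 4, so both use the CMP arrays of slide 4. All these arrays were in the fit that made the calls, so the kept signs are not independent support. A fixed slide block left 635 calls, 440 higher in GATA1-LSK and 195 in CMP, 469 of them among the 853.

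**Figure D2:**
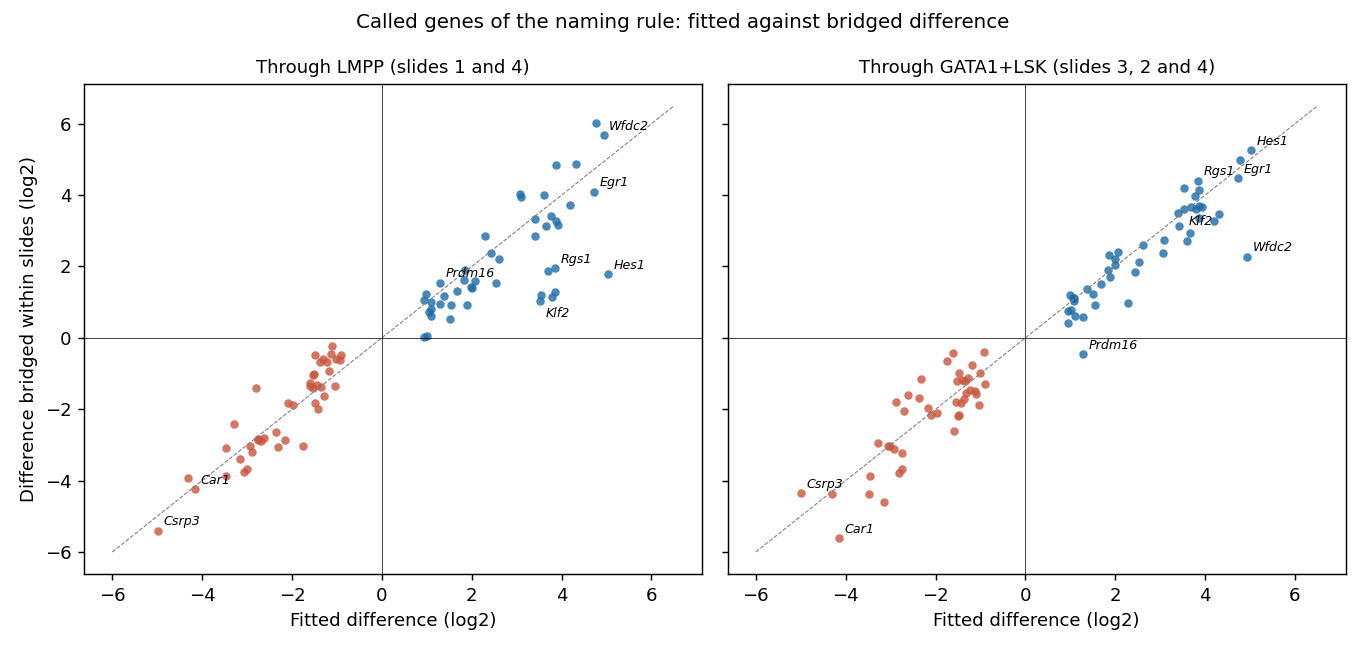
Fitted difference (x axis, log2) against the difference bridged within slides (y axis, log2) through LMPP (left) and through GATA1+LSK (right), 1 point per called gene of the naming rule, blue for higher in GATA1-LSK and red for higher in CMP. The dashed line marks equal values. Points spread around the line. Hes1, Ppp1r15a, Fosb, Klf2, Zfp36, Rgs1 and Hey1 lie farthest from it through LMPP, all of them below it, and through GATA1+LSK Wfdc2 lies farthest below it and Prdm16 falls below 0.

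The genes that name the populations were examined first. Gata1 had levels of 6.24, 5.70, 5.48 and 5.48 on GATA1-LSK arrays 1 to 4 and 6.46, 6.44, 6.84 and 6.72 on CMP arrays 1 to 4. All 4 CMP arrays were above all 4 GATA1-LSK arrays, but the difference of -0.89 ± 0.28 did not pass the test (adjusted p = 0.0536). In GATA1+LSK, the population sorted for the reporter, Gata1 stood at 7.19 ± 0.68 (SD, n = 4). Kit, which encodes the stem cell factor receptor c-Kit, differed by 0.27 ± 0.47 (adjusted p = 0.839) and Cd34, a surface marker of progenitors, by -0.26 ± 0.30 (adjusted p = 0.737), and the sign of the Kit value turned to -0.13 under median scaling. Flt3, the receptor that marks early lymphoid progenitors, was detected on 1 array of each population. Its probe was also low in LMPP (5.03 ± 0.27, SD, n = 4), and its other detected probe went the opposite way. These values therefore do not decide whether either population expressed Flt3. No probe is named for Ly6a, which encodes Sca-1, and Cebpa, a granulocyte transcription factor gene, missed the detection filter, so neither was tested.

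Of the 10 sort gate genes tested, Thy1 was higher in GATA1-LSK and Fcgr2b was higher in CMP, against 5.23% and 2.45% of all genes. The other 8 did not pass the test (list median 0.24, and 0.00 under median scaling). Thy1, a surface glycoprotein gene of early haematopoietic cells and T cells, had levels of 9.95, 9.73, 9.85 and 8.75 in GATA1-LSK and 7.34, 7.09, 7.12 and 6.59 in CMP. The populations did not overlap, and the difference was 2.54 ± 0.44 (adjusted p = 0.000549). Fcgr2b encodes a low-affinity Fc gamma receptor of the kind used to divide myeloid progenitors by antibody, and differed by -1.75 ± 0.41 (adjusted p = 0.00817). The call was lost without the arrays of slide 2 (adjusted p = 0.0786) and without background correction (adjusted p = 0.157), and 1 of its 3 other detected probes went the opposite way.

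Among stem cell genes, those called were all higher in GATA1-LSK. Of 20 tested genes for stem cell surface proteins and quiescence, 10 were called higher in GATA1-LSK, none was called higher in CMP, and all 20 differences were above 0, with a median of 1.49 against 0.01 for all genes. Cdkn1c, encoding the cell cycle inhibitor p57, had levels of 11.53, 11.43, 11.16 and 10.61 on GATA1-LSK arrays and 6.71, 6.54, 7.54 and 6.70 on CMP arrays. The lowest GATA1-LSK array lay more than 3 log2 units above the highest CMP array, and the difference was 4.31 ± 0.24 (adjusted p = 6.83e-11). Its bridged differences were 4.88 through LMPP and 3.48 through GATA1+LSK. Across populations its mean level was highest in LT-HSC (12.35 ± 0.20, SD, n = 6), then GATA1-LSK (11.18 ± 0.41), GATA1+LSK (10.40 ± 0.13), LMPP (9.04 ± 0.36) and CMP (6.87 ± 0.45), the last 4 with n = 4.

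Esam, an endothelial-type adhesion molecule that marks stem cells, stood at 11.16, 11.03, 11.26 and 11.25 in GATA1-LSK and at 7.24, 7.75, 7.80 and 8.31 in CMP. The GATA1-LSK arrays lay close together and far above every CMP array, with a difference of 3.40 ± 0.23 (adjusted p = 2.3e-09). In LMPP the Esam level was 7.42 ± 0.26 (SD, n = 4), near that of CMP. Tgm2, a transglutaminase gene, differed by 3.93 ± 0.49 and Robo4, a guidance receptor gene of endothelium and stem cells, by 3.42 ± 0.31. Robo4 stood at 10.51 ± 0.24 (SD, n = 4) in LMPP, near its GATA1-LSK mean of 10.88. Txnip, which encodes the thioredoxin-interacting protein, stood at 13.74 to 13.90 in GATA1-LSK and 12.24 to 12.64 in CMP, a difference of 1.38 ± 0.18 (adjusted p = 2.75e-05). Ndn, encoding the growth suppressor necdin, was detected on 2 of 4 CMP arrays and differed by 3.07 ± 0.37. Of the 10 genes that did not pass, Cdkn1a, which encodes the inhibitor p21, differed by 1.83 ± 0.71 (adjusted p = 0.135), with GATA1-LSK arrays 1 to 3 at 10.35 to 10.58 and array 4 at 8.23. Under median scaling 5 of the 20 were called and the median was 1.12.

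Among stem cell transcription factors, 6 of 15 tested genes were higher in GATA1-LSK and none was higher in CMP (median 0.77, and 0.51 under median scaling, where 2 were called). Nkx2-3, a homeobox gene, had levels of 10.80, 11.28, 11.10 and 10.92 in GATA1-LSK and 7.17, 7.01, 7.18 and 7.27 in CMP. Each population was tight and the gap between them was 3.87 ± 0.31 (adjusted p = 2.76e-08). LMPP stood at 10.99 ± 0.28 (SD, n = 4) for Nkx2-3, near GATA1-LSK. Hoxb5, a homeobox gene that marks long-term stem cells, stood at 8.06, 8.33, 7.44 and 7.95 in GATA1-LSK and at 4.89, 5.17, 4.31 and 5.03 in CMP, where 3 of 4 arrays detected it, and differed by 3.09 ± 0.25 (adjusted p = 2.66e-08). Hoxa5 differed by 2.0 ± 0.36 (adjusted p = 0.000825), whereas the differences of Hoxa9 (-0.17), Hoxa7 (-0.28) and Hoxb4 (0.07) did not pass the test. The Hoxa5 level in LMPP was 11.8 ± 0.36 (SD, n = 4), near its GATA1-LSK mean of 11.96. Meis1, a cofactor gene of HOX proteins, was higher by 0.94 ± 0.21 and Tal1, a basic helix-loop-helix factor gene of early haematopoiesis, by 0.98 ± 0.22. Prdm16, a stem cell maintenance gene, was higher by 1.29 ± 0.36 (adjusted p = 0.0291), which did not hold without any 1 of GATA1-LSK replicates 1 to 3 or CMP replicates 1, 2 and 4 (adjusted p up to 0.0983) and with slide as a fixed block (adjusted p = 0.175), and its bridged value through GATA1+LSK was -0.46. Mecom (0.77 ± 0.30, adjusted p = 0.142), Hlf (0.43 ± 0.32, adjusted p = 0.532) and Gata2 (0.17 ± 0.33, adjusted p = 0.855), 3 other stem cell factor genes, did not pass, and Gata2 turned to -0.22 under median scaling.

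Imprinted growth genes, which are expressed from 1 parental copy and regulate growth of embryo and stem cells, gave calls in the same direction. Of 12 tested, 6 were called higher in GATA1-LSK and none in CMP, 2 differences were below 0, and the median was 1.34 (1.10 under median scaling, where 4 were called). Cdkn1c and Ndn, described above, are members of this list too. Phlda2, a growth-restraining gene known from the placenta, had levels of 10.66, 10.63, 10.41 and 10.61 in GATA1-LSK and 5.92, 6.85, 7.59 and 7.56 in CMP. The GATA1-LSK arrays were nearly equal and the CMP arrays spread below them, with a difference of 3.60 ± 0.42 (adjusted p = 4.88e-06). Igf2r, the receptor that clears insulin-like growth factor 2, was higher by 2.44 ± 0.24 (adjusted p = 5.43e-07). Its level in LMPP, 8.99 ± 0.10 (SD, n = 4), was above its GATA1-LSK mean of 7.54. Dlk1, a membrane protein gene of the Notch ligand family, was higher by 1.68 ± 0.36. Igf2, the growth factor gene itself, was detected on all GATA1-LSK arrays and on no CMP array and was at least 2.04-fold higher there than in CMP (adjusted p = 0.00217), where such a bound sets the GATA1-LSK mean against the lowest detected signal on the CMP arrays.

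**Figure D3:**
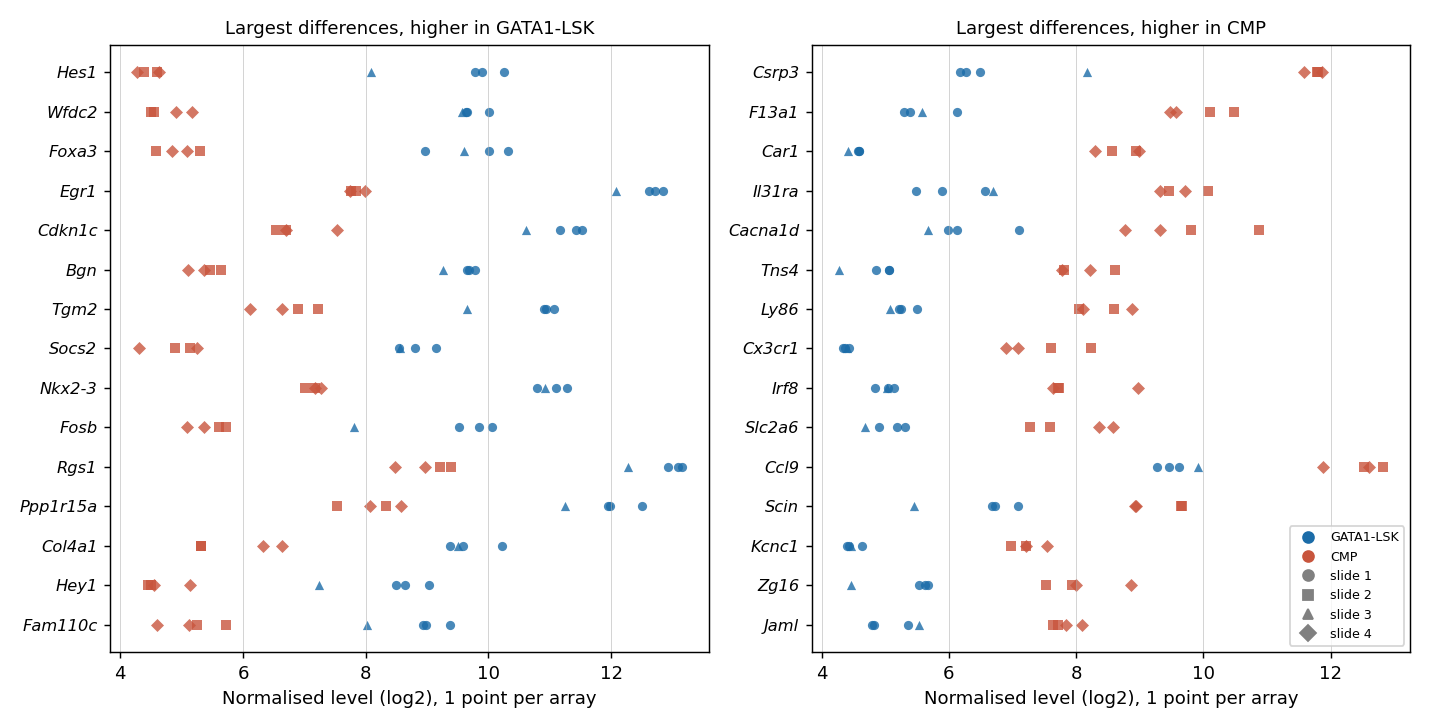
Normalised log2 level (x axis) of 15 called genes per direction, 1 point per array, blue for GATA1-LSK and red for CMP, with the slide as the symbol. They have the largest differences among called genes whose arrays do not overlap, leaving out clone and predicted gene names. In every one of these genes, the choice of which fixed it, the 2 colours are separate. GATA1-LSK replicate 4, the triangle, is the lowest blue point for Hes1, Hey1, Fosb, Tgm2, Ppp1r15a, Egr1, Cdkn1c, Bgn, Wfdc2, Rgs1 and Fam110c. Among genes higher in CMP it is the highest blue point for Csrp3, Ccl9, Il31ra and Jaml. It is the lowest for Cacna1d, Car1, Ly86, Scin, Slc2a6, Tns4 and Zg16.

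The largest differences in the direction of GATA1-LSK held transcription factor, matrix and signalling genes. Hes1, a repressor gene of the Notch pathway, had levels of 9.90, 9.77, 10.26 and 8.09 in GATA1-LSK and 4.38, 4.60, 4.63 and 4.28 in CMP, where no array detected it. It was at least 24.1-fold higher there than in CMP (adjusted p = 0.0176). Its fitted standard error, 1.31, comes from the spread pooled over all populations, and its level varied within GATA1+LSK (SD 3.02, n = 4) and LT-HSC (SD 2.52, n = 6). The call was lost without any 1 of GATA1-LSK replicates 1 to 3 (adjusted p up to 0.0551), and its bridged differences were 1.79 through LMPP and 5.26 through GATA1+LSK. Hey1, another repressor gene of that pathway, was at least 10.8-fold higher there than in CMP (adjusted p = 0.0347), which did not hold without any 1 of GATA1-LSK replicates 1 to 3 or CMP replicates 1, 2 and 4 (adjusted p up to 0.0945). Notch1, the receptor gene, went the opposite way and was higher in CMP by 1.49 (-1.49 ± 0.29, adjusted p = 0.00159), but not with slide as a fixed block (adjusted p = 0.0702). Notch1 stood at 8.41 ± 0.60 (SD, n = 4) in LMPP, above its CMP mean of 7.21.

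Foxa3, a forkhead factor gene best known from liver, had levels of 10.32, 10.01, 8.97 and 9.60 in GATA1-LSK and 5.30, 4.58, 5.09 and 4.84 in CMP, where 1 of 4 arrays detected it. The difference was 4.77 ± 0.33 (adjusted p = 2.6e-09), and its bridged values were 6.01 and 5.0. Wfdc2, a gene for a secreted whey acidic protein, differed by 4.94 ± 0.51 (adjusted p = 7.93e-07) and was detected on 1 CMP array. Bgn, the matrix proteoglycan biglycan, stood at 9.78, 9.68, 9.64 and 9.25 in GATA1-LSK and at 5.46, 5.64, 5.10 and 5.37 in CMP, a difference of 4.20 ± 0.23 (adjusted p = 6.83e-11). Bgn was likewise high in GATA1+LSK (9.35 ± 0.41) and LT-HSC (9.77 ± 0.23) and low in LMPP (5.25 ± 0.40). Col4a1, a basement membrane collagen gene, differed by 3.77 ± 0.30, and Socs2, a suppressor of cytokine signalling, by 3.87 ± 0.39. Rgs1, a regulator of G protein signalling, differed by 3.85 ± 0.51 and Fam110c, a gene linked to the cytoskeleton, by 3.65 ± 0.80.

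Immediate-early genes, which are transcribed within minutes of a stimulus and without new protein synthesis, had a larger list median in the fit than the other 24 lists, but not bridged through LMPP, where imprinted growth genes (1.96) and stem cell surface and quiescence genes (1.39) had larger ones than immediate-early genes (1.04). Of 27 tested, 17 were higher in GATA1-LSK, none was higher in CMP, and the median was 2.0. Under median scaling the median was 1.62 and 6 were called. Egr1, a zinc finger gene that is also known to hold stem cells in their niche, had levels of 12.62, 12.72, 12.85 and 12.08 in GATA1-LSK and 7.83, 7.76, 7.75 and 7.99 in CMP. The populations lay more than 4 log2 units apart, and the difference was 4.73 ± 0.30 (adjusted p = 7.08e-10), with bridged values of 4.10 and 4.48. Fosb, a subunit gene of the factor AP-1, had levels of 9.84, 10.06, 9.53 and 7.80 in GATA1-LSK and 5.73, 5.62, 5.09 and 5.36 in CMP. It did not overlap, and differed by 3.86 ± 0.88 (adjusted p = 0.00614).

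The other AP-1 subunit genes called were Fos (3.28 ± 0.50), Jun (3.20 ± 0.63), Junb (2.95 ± 0.81) and Jund (1.78 ± 0.36). Zfp36, whose product destabilises mRNAs with AU-rich elements, stood at 13.10, 13.10, 13.39 and 12.71 in GATA1-LSK and at 8.94, 9.44, 10.04 and 9.73 in CMP, and differed by 3.54 ± 0.43. Ppp1r15a, which encodes the stress-induced phosphatase subunit GADD34, differed by 3.79 ± 0.47, and Dusp1, a phosphatase gene that switches off MAP kinases, by 2.52 ± 0.44. Klf2, a Krüppel-like factor gene, differed by 3.52 ± 0.72, with GATA1-LSK replicate 4 at 7.18 and replicates 1 to 3 at 8.88 to 8.97. Ier3, an apoptosis regulator gene, stood at 13.59 to 14.00 in GATA1-LSK and 11.52 to 12.29 in CMP. Egr3 was detected on no CMP array and was at least 8.26-fold higher there than in CMP (adjusted p = 0.0124). Myc (-0.38), Btg2 (0.15) and Ier5 (0.30) were among the 10 that did not pass.

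The immediate-early levels moved with the slides inside the other populations. The mean level over the 27 genes was 9.19, 9.06 and 9.24 on GATA1-LSK replicates 1 to 3 on slide 1 and 8.32 on replicate 4 on slide 3. In LMPP it was 9.0 to 9.26 on slide 1 and 7.68 on slide 4, in GATA1+LSK 9.16 and 9.22 on slide 2 against 8.01 and 8.07 on slides 3 and 4, and in LT-HSC 9.72 and 9.74 on slide 2 against 8.29 to 8.60 on slide 3. In CMP it was 6.86 and 7.01 on slide 2 and 6.89 and 6.86 on slide 4, below every array of the other populations on either slide. The median bridged difference of the list was 1.04 through LMPP, with 22 of 27 above 0, and 2.33 through GATA1+LSK, with 23 of 27 above 0. For Klf2, Zfp36, Ppp1r15a and Fosb the LMPP bridge gave 1.04, 1.19, 1.16 and 1.28 and the GATA1+LSK bridge 3.61, 4.19, 3.60 and 3.37. With slide as a fixed block 16 of the 27 were called, and the median was 1.99. The time between marrow collection and lysis is not given in the sources used here, and its part was not tested.

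**Figure D4:**
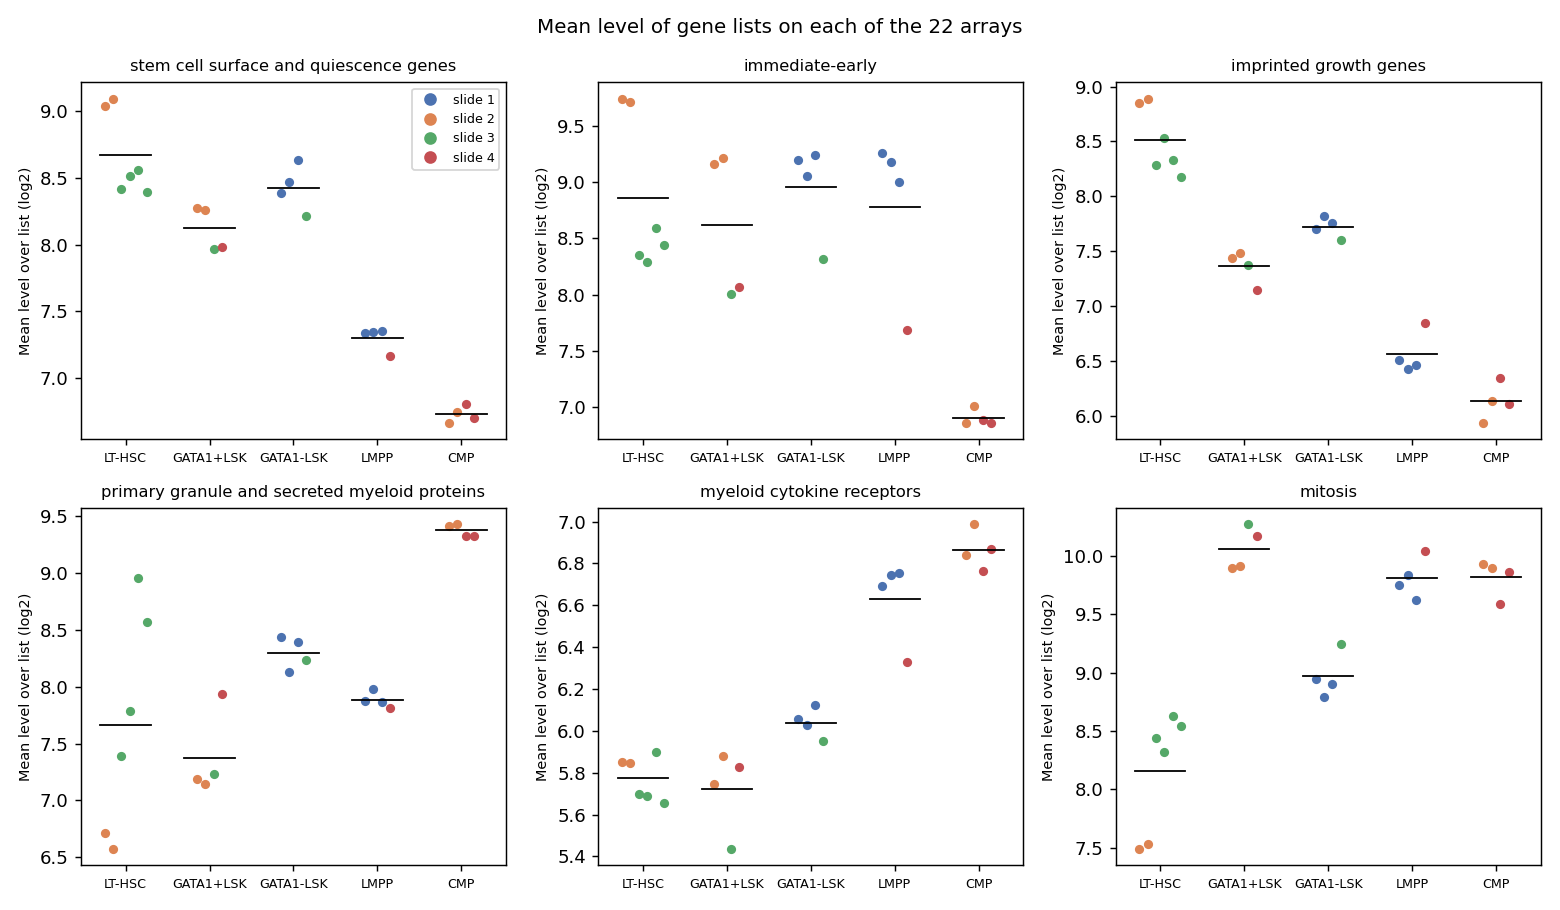
Mean log2 level over the tested members of 6 gene lists (y axis) on each of the 22 arrays, grouped by population (x axis), with the slide as the colour and the population mean as a bar. CMP arrays have the lowest immediate-early means, 6.86 to 7.01, on both of their slides, while in each other population the arrays of slides 3 and 4 lie below those of slides 1 and 2. For mitosis, GATA1-LSK (8.79 to 9.25) lies below CMP (9.59 to 9.93) and above LT-HSC.

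Because the immediate-early genes moved together, their promoters were read for the serum response element core (CArG box), bound by serum response factor, and for the cyclic AMP response element TGACGTCA, on both strands, in RefSeq windows of mouse build GRCm38.p6 that run from 250 bases before to 50 bases after a gene's start. Of the 17 called genes, 14 had a window. A CArG box was found in 1 of the 14 windows (7.14%), that of Zfp36, against 1.40% of the 11498 windows of all tested genes. The cyclic AMP response element was found in 2 windows (14.3%), those of Dusp1 and Ppp1r15a, against 2.87% of all windows. In the 665 windows of all genes called higher in GATA1-LSK, the shares were 1.95% for the CArG box and 1.35% for the cyclic AMP response element. The other 11 of the 14 windows held neither, and with so few windows the shares are descriptions of these letters only. The 3 windows that held one are shown with the motif in capitals, all on the minus strand: Zfp36 at chr7:28379179-28379478, Dusp1 at chr17:26508423-26508722 and Ppp1r15a at chr7:45526219-45526518.
Zfp36: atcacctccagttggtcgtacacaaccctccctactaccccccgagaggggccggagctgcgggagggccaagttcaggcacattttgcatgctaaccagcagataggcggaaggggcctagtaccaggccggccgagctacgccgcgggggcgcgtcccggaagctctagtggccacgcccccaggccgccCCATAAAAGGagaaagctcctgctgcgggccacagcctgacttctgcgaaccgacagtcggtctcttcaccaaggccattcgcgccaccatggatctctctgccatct
Dusp1: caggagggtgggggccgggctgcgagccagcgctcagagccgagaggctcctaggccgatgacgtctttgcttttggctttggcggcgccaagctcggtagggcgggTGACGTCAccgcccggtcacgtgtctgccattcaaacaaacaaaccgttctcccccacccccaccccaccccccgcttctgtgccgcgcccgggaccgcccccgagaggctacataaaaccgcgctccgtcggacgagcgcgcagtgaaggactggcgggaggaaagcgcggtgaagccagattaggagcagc
Ppp1r15a: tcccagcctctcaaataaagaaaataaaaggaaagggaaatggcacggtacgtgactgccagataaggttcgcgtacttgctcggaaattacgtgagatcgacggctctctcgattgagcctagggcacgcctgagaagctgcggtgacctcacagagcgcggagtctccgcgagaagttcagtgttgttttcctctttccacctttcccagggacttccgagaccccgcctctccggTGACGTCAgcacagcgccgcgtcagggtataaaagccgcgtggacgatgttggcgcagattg
The motif begins 58 bases before the start of Zfp36, 143 before that of Dusp1 and 12 before that of Ppp1r15a.

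Interferon response genes were higher in GATA1-LSK in 7 of 24 tested cases and higher in CMP in 1, with a median of 0.45. Under median scaling the counts were 2 and 0 and the median 0.19. Gbp2, a guanylate-binding protein gene, had levels of 9.92, 9.86, 10.71 and 10.68 in GATA1-LSK and 7.78, 8.40, 8.72 and 8.34 in CMP, a difference of 1.98 ± 0.26 (adjusted p = 2.26e-05). Rsad2, which encodes the antiviral protein viperin, was higher by 1.55 ± 0.30 (adjusted p = 0.00174), and Oasl2, of the oligoadenylate synthetase family, by 1.29 ± 0.24. The other 4 were Irf1, Ifit3, Oas2 and Ifitm1, and of these the calls of Ifit3 (adjusted p = 0.420) and Oas2 (adjusted p = 0.119) were lost with slide as a fixed block. Leaving out any 1 of the 8 arrays ended the Ifit3 call (adjusted p up to 0.139), and leaving out GATA1-LSK replicate 3 or 4 or CMP replicate 1 ended that of Oas2 (adjusted p up to 0.0746). Gbp3, a relative of Gbp2, was higher in CMP (-1.60 ± 0.40, adjusted p = 0.0126), though not without CMP replicate 1 (adjusted p = 0.0656), which had the highest level, 11.27.

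Some genes for secreted myeloid proteins and myeloid receptors were higher in CMP. Of 27 tested genes for primary granule and secreted myeloid proteins, 7 were called higher in CMP and none in GATA1-LSK, with a median of -1.03. F13a1, the A chain of coagulation factor XIII, which monocytes and platelets carry, had levels of 5.30, 5.38, 6.12 and 5.58 in GATA1-LSK and 10.47, 10.11, 9.48 and 9.57 in CMP. No array of the populations came within 3 log2 units of the other population, and the difference was -4.31 ± 0.23 (adjusted p = 6.83e-11), with bridged values of -3.93 and -4.36. Its level was 5.09 ± 0.28 in LMPP, 4.46 ± 0.07 in GATA1+LSK and 4.55 ± 0.21 in LT-HSC. Ly86, which encodes a partner of a Toll-like receptor homologue, differed by -3.15 ± 0.39 (adjusted p = 1.08e-05). Ccl9, a chemokine gene, had levels of 9.46, 9.27, 9.62 and 9.91 in GATA1-LSK and 12.83, 12.52, 11.87 and 12.59 in CMP, a difference of -2.89 ± 0.39.

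Hk3, the hexokinase gene of myeloid cells, was at 12.07 to 12.14 on the CMP arrays and 10.28 to 10.95 on the GATA1-LSK arrays (-1.42 ± 0.29, adjusted p = 0.00227). Alas1, the housekeeping enzyme gene of heme synthesis, differed by -1.54 ± 0.32, and Alox5, the leukotriene enzyme gene, was detected on no GATA1-LSK array and its CMP level was at least 2.40-fold higher (adjusted p = 0.00101). F10, coagulation factor X, was called (-2.10 ± 0.58, adjusted p = 0.0269), but not with slide as a fixed block (adjusted p = 0.0609) nor without any 1 of GATA1-LSK replicates 2 and 3 or CMP replicates 1, 2 and 4 (adjusted p up to 0.0861). The azurophil granule genes did not pass the test. Mpo, myeloperoxidase, was at 13.61, 13.67, 13.76 and 13.08 in GATA1-LSK, against 13.87, 13.99, 13.98 and 13.74 in CMP (-0.37 ± 1.01, adjusted p = 0.903). Its pooled error holds the spread in LT-HSC (SD 2.73, n = 6) and GATA1+LSK (SD 1.35, n = 4), so the missing call does not show equal levels. Elane, neutrophil elastase, stood at 9.11, 8.38, 10.01 and 9.34 in GATA1-LSK and at 10.43, 11.10, 10.87 and 10.87 in CMP. Every CMP array was above every GATA1-LSK array, but the difference of -1.61 ± 1.02 did not pass (adjusted p = 0.440). The pooled error holds the spread in LT-HSC (SD 2.79, n = 6). In a fit of the 8 arrays alone, 13 of the 27 genes were called higher in CMP. The list median was -0.54 without the arrays of slide 2, and bridged it was -0.98 through LMPP and -0.39 through GATA1+LSK.

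Promoters of the 15 myeloid list genes called higher in CMP were read for the PU.1 motif GAGGAAGT, on both strands. Of these genes 14 had a window, and 1 of their 20 windows (5.0%) held the motif. It belongs to F13a1, which had the smallest adjusted p among the genes higher in CMP. Of the 2 RefSeq windows of F13a1, the one on the minus strand at chr13:37049164-37049463 holds it, 14 bases after the start, and it is shown with the motif in capitals.
F13a1: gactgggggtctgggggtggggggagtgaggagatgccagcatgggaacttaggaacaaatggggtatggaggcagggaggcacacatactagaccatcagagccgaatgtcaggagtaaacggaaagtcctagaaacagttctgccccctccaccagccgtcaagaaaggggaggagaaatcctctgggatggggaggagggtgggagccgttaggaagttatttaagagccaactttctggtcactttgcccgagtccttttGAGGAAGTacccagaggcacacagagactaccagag
The motif was found in 3.20% of the 281 windows of genes called higher in CMP, in 3.76% of the 665 windows of genes called higher in GATA1-LSK and in 3.05% of all windows. The GATA motif AGATAA was found in 5.69%, 6.92% and 6.98% of the same windows.

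Among myeloid cytokine and chemokine receptors, 6 of 17 tested genes were higher in CMP and none was higher in GATA1-LSK (median -0.76). Cx3cr1, the fractalkine receptor gene of monocytes, was not detected on any GATA1-LSK array, where it lay at 4.33 to 4.43, and stood at 7.60, 8.23, 6.89 and 7.09 in CMP. Its CMP level was at least 5.55-fold higher (adjusted p = 1.29e-07). Csf1r, the macrophage colony-stimulating factor receptor gene, stood at 6.33, 6.17, 5.98 and 6.22 in GATA1-LSK and at 7.07, 7.24, 7.70 and 7.54 in CMP, a difference of -1.21 ± 0.26 (adjusted p = 0.00438). Il6ra, the interleukin-6 receptor gene, differed by -2.32 ± 0.45, though another detected probe of it went the opposite way and the mean of its probes did not pass (adjusted p = 0.0687). Its signalling partner Il6st differed by -1.49 ± 0.33, a call lost with slide as a fixed block (adjusted p = 0.138). Ccr2, a monocyte chemokine receptor gene, was detected on no GATA1-LSK array and its CMP level was at least 1.77-fold higher (adjusted p = 2.17e-05). Csf2ra (0.05), Csf2rb (0.31) and Csf3r (0.28), the receptor genes for the granulocyte colony-stimulating factors, did not pass.

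Of 17 myeloid transcription factors, Irf8 and Zeb2 were higher in CMP and Vdr was higher in GATA1-LSK, against 2.45% and 5.23% of all genes. The list median was 0.05 (-0.34 under median scaling). Vdr, the vitamin D receptor gene, differed by 0.94 ± 0.27 (adjusted p = 0.0299), lost with slide as a fixed block (adjusted p = 0.464) and without any 1 of GATA1-LSK replicates 1 to 3 or CMP replicates 1 and 4 (adjusted p up to 0.122). Irf8, the factor of monocyte and dendritic cell development, had levels of 5.04, 4.84, 5.13 and 5.02 in GATA1-LSK and 7.73, 7.71, 7.63 and 8.98 in CMP. The difference was -3.0 ± 0.27 (adjusted p = 1.23e-07), and only 2 of 4 GATA1-LSK arrays detected it. Zeb2, a zinc finger repressor gene, differed by -1.53 ± 0.41 (adjusted p = 0.0197), lost with slide as a fixed block (adjusted p = 0.240) and without GATA1-LSK replicate 4 or CMP replicate 2 or 4 (adjusted p up to 0.0704). Spi1 stood at 6.26, 5.06, 6.35 and 5.61 in GATA1-LSK and at 5.83, 6.68, 7.01 and 6.99 in CMP. The populations overlapped, and the difference of -0.81 ± 0.32 did not pass (adjusted p = 0.144).

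**Figure D5:**
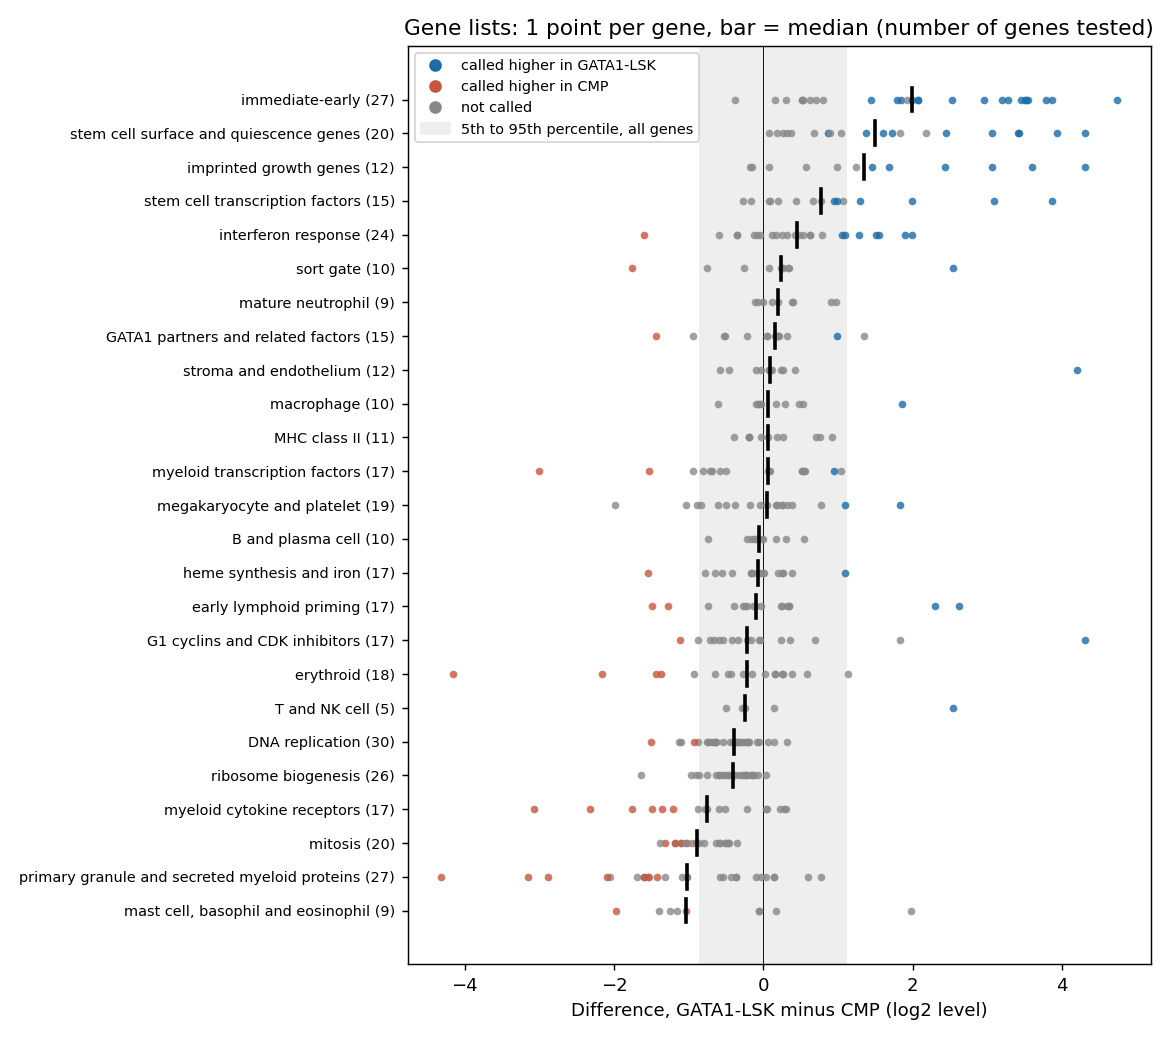
Difference between GATA1-LSK and CMP (x axis, log2 level) of each tested gene of the 25 lists (rows, with the number tested), blue or red where called and grey otherwise, with the median as a bar and the range from -0.85 to 1.11 that leaves out the extreme twentieth of all tested genes at either end shaded. Immediate-early genes have the highest median (2.0), followed by stem cell surface and quiescence genes (1.49). The lowest medians are those of the mast cell, basophil and eosinophil list (-1.04) and of the granule list (-1.03).

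Among called genes whose arrays did not overlap, leaving out clone and predicted names, Csrp3 had the largest difference in the direction of CMP. It is a LIM protein gene best known from muscle. Its levels were 6.27, 6.49, 6.18 and 8.17 in GATA1-LSK and 11.78, 11.80, 11.87 and 11.58 in CMP. GATA1-LSK replicate 4 lay above the other 3 but still more than 3 log2 units below CMP, and the difference was -4.98 ± 0.50 (adjusted p = 5.43e-07). Csrp3 was also high in GATA1+LSK (10.91 ± 0.75) and low in LMPP (4.54 ± 0.19), and both of its other detected probes had the same sign. Il31ra, a cytokine receptor gene, differed by -3.48 ± 0.43, Tns4, a focal adhesion gene, by -3.29 ± 0.37, and Slc2a6, a sugar transporter gene, by -2.93 ± 0.37. Cacna1d, a calcium channel gene, differed by -3.47 ± 0.42, but its other detected probe went the opposite way. Scin, an actin-severing protein gene, Kcnc1, a potassium channel gene, Zg16, a secretory granule lectin gene, and Jaml, a junctional adhesion molecule gene of leukocytes, differed by -2.81, -2.76, -2.76 and -2.69. Jaml stood at 8.22 ± 0.17 (SD, n = 4) in LMPP, above its CMP mean of 7.82. Tspo, the outer mitochondrial membrane protein gene, stood at 12.48 to 13.15 in CMP and 11.22 to 11.78 in GATA1-LSK.

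Of 18 erythroid genes tested, 4 were higher in CMP, none was higher in GATA1-LSK and 14 did not pass, with a median of -0.21. Car1, the carbonic anhydrase gene of early red cell progenitors, was not detected in GATA1-LSK, at 4.41 to 4.59, and stood at 8.56, 8.93, 8.29 and 8.98 in CMP. Its CMP level was at least 13.1-fold higher (adjusted p = 1.76e-07). Car1 also stood at 8.73 ± 0.86 (SD, n = 6) in LT-HSC and 8.10 ± 0.71 (SD, n = 4) in GATA1+LSK, and at 4.52 ± 0.14 (SD, n = 4) in LMPP. Klf1, the erythroid Krüppel-like factor gene, had levels of 4.40, 4.69, 5.36 and 4.55 in GATA1-LSK, where 1 array detected it, and 5.85, 6.38, 6.19 and 6.34 in CMP, a difference of -1.44 ± 0.23 (adjusted p = 0.000238). Aqp1, a water channel gene, differed by -1.37 ± 0.28, and Kel, a red cell blood group gene, by -2.16 ± 0.54. Epor, the erythropoietin receptor gene (-0.43), and Hba-a1, an alpha globin gene (-0.15), did not pass. The bridged list median was -0.42 through LMPP and 0.02 through GATA1+LSK. The mean level over the 18 genes was 7.84 in GATA1+LSK, 7.61 in LT-HSC, 7.06 in CMP, 6.56 in GATA1-LSK and 5.89 in LMPP. Of 15 genes for GATA1 partners and related factors, Tal1 was higher in GATA1-LSK and Klf1 higher in CMP, against 5.23% and 2.45% of all genes. The median of these 15 genes, 0.16, turned to -0.24 under median scaling.

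Of 19 megakaryocyte and platelet genes, 2 were higher in GATA1-LSK and none was higher in CMP, against 5.23% and 2.45% of all genes. The list median was 0.05 (-0.21 under median scaling, where 2 were called higher in CMP). Gp9, which encodes a platelet adhesion receptor subunit, differed by 1.09 ± 0.23 (adjusted p = 0.00387), not called with slide as a fixed block (adjusted p = 0.131). Mmrn1, a platelet granule protein gene, differed by 1.83 ± 0.51 (adjusted p = 0.0264), not called without GATA1-LSK replicate 3 or 4 or CMP replicate 2 or 3 (adjusted p up to 0.0910). Itga2b, the platelet integrin CD41, was near 11 in both populations (-0.17 ± 0.35, adjusted p = 0.865). Pf4, platelet factor 4, was at 6.14 to 6.69 in GATA1-LSK and at 7.15 to 9.73 in CMP without passing (adjusted p = 0.0887). Tfr2, a transferrin receptor gene, was higher in GATA1-LSK by 1.09 ± 0.17 (adjusted p = 0.000187). It was 1 of the 2 calls among 17 heme and iron genes, against 7.67% of all genes called. However, its other detected probe had the opposite sign and the mean of both did not pass (adjusted p = 0.516).

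In the mast cell, basophil and eosinophil list, 2 of 9 tested genes were higher in CMP and none in GATA1-LSK (median -1.04). Of all genes, 2.45% and 5.23% were called in these directions. Mcpt8, a basophil protease gene, was undetected in GATA1-LSK and stood at 6.12, 5.88, 6.89 and 7.83 in CMP, at least 3.25-fold higher (adjusted p = 0.00358). Prss34, another basophil protease gene, had a CMP level at least 1.61-fold higher (adjusted p = 0.0276), not called with slide as a fixed block (adjusted p = 0.0607) or without any 1 of GATA1-LSK replicates 1 to 3 or CMP replicates 1 and 3 (adjusted p up to 0.0956). Its level in GATA1+LSK was 10.90 ± 0.58, far above either. Prg2, the eosinophil major basic protein gene, named after its values were seen, stood at 8.13 to 9.53 in GATA1-LSK and at 5.87, 5.21, 10.44 and 5.25 in CMP, so that CMP replicate 3 alone lay above GATA1-LSK (1.97 ± 0.81, adjusted p = 0.169).

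Lymphoid priming genes gave 2 calls in each direction among 17 tested (median -0.10), against 7.67% of all genes called in either direction. Ltb, lymphotoxin beta, was higher in GATA1-LSK, at 7.69, 7.75, 7.95 and 7.76 against 4.88, 5.19, 5.71 and 4.91 (2.61 ± 0.24, adjusted p = 1.27e-07). Ly6d, a marker of B-lineage progenitors, was detected on no CMP array and was at least 3.31-fold higher there than in CMP (adjusted p = 0.0143), which did not pass when GATA1-LSK replicate 1 was left out (adjusted p = 0.0710) or with slide as a fixed block (adjusted p = 0.460). Satb1, a chromatin organiser of early lymphoid cells, was higher in CMP, at 10.36, 10.76, 10.77 and 11.25 against 9.31, 9.43, 9.57 and 9.69 (-1.28 ± 0.25, adjusted p = 0.00179). Its level in LMPP, 11.84 ± 0.07 (SD, n = 4), was higher still. The fourth, Notch1, is given above. Dntt, which encodes the terminal transferase of antigen receptor joining, was near background in both, detected on 1 GATA1-LSK and 3 CMP arrays, and stood at 8.99 ± 0.42 in LMPP. None of 11 MHC class II genes was called at the adjusted threshold of limma, and their median was 0.06 (-0.36 under median scaling). At an unadjusted p under 0.05 there was 1.

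Of 20 tested mitosis genes, all 20 differences were below 0, 5 were called higher in CMP and the median was -0.89. Cdk1, the mitotic kinase gene, had levels of 9.12, 8.55, 9.01 and 8.74 in GATA1-LSK and 10.20, 10.09, 9.13 and 10.06 in CMP. CMP replicate 3 lay just above the highest GATA1-LSK array, and the difference was -1.02 ± 0.25 (adjusted p = 0.0126). Aurkb, the Aurora B kinase gene, differed by -1.31 ± 0.35, Tpx2, a spindle assembly gene, by -1.10 ± 0.29, Mad2l1, a spindle checkpoint gene, by -0.91 ± 0.24, and Ndc80, a kinetochore gene, by -1.18 ± 0.36. None of the 20 was called by limma without GATA1-LSK replicate 2 (adjusted p of these 5 from 0.0506 to 0.136) or without CMP replicate 1 (0.0560 to 0.115), 2 were called without CMP replicate 2 or 4, and 10 without the arrays of slide 3. Cdk1, Tpx2, Mad2l1 and Ndc80 also lost their calls with slide as a fixed block (adjusted p = 0.104, 0.175, 0.123 and 0.424). The mean level over the 20 genes was 8.95, 8.79, 8.90 and 9.25 in GATA1-LSK and 9.93, 9.89, 9.59 and 9.87 in CMP. The bridged medians were -0.54 through LMPP and -0.73 through GATA1+LSK.

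Of 30 DNA replication genes, 27 differences were below 0, with a median of -0.40 (-0.82 under median scaling, where 1 was called). In the main fit 2 of the 30 were called higher in CMP, against 2.45% of all genes. These were Rfc4, a clamp loader subunit (-1.50 ± 0.32, adjusted p = 0.00327), and Rrm1, the large subunit of ribonucleotide reductase (-0.93 ± 0.22, adjusted p = 0.00982). Both were lost with slide as a fixed block (adjusted p = 0.0964 and 0.129), and Rrm1 also without GATA1-LSK replicate 2 or CMP replicate 1 (adjusted p up to 0.0544). Among 26 ribosome biogenesis genes 25 differences were below 0, with a median of -0.41, but none was called by limma. At an unadjusted p under 0.05 there were 9, and median scaling called 2 higher in CMP, with a median of -0.69. The mean level over these 26 genes was 8.66 to 8.84 in GATA1-LSK and 9.12 to 9.38 in CMP without overlap. Nhp2 (-1.63 ± 0.51, adjusted p = 0.0529) and Nip7 (-0.97 ± 0.31, adjusted p = 0.0628), a small nucleolar particle gene and a ribosome assembly gene, missed the threshold, and the other detected probe of each had the opposite sign. Of 17 genes for G1 cyclins and their inhibitors, Cdkn1c and Rbl1 were called, against 7.67% of all genes. Rbl1, a retinoblastoma-family gene, was higher in CMP (-1.12 ± 0.34, adjusted p = 0.0475) with overlapping arrays. The Rbl1 call was lost with slide as a fixed block (adjusted p = 0.228) and without any 1 of GATA1-LSK replicates 1, 2 and 4 or CMP replicates 1, 2 and 4 (adjusted p up to 0.193).

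Markers of other cell types were examined beside these lists. Of all genes, 7.67% were called in either direction. The mature neutrophil list (9 tested) and the B and plasma cell list (10 tested) had no called member by limma, nor one at an unadjusted p under 0.05, with medians of 0.19 and -0.06. The neutrophil median was -0.33 with slide as a fixed block, -0.18 with slide as a random block and 1.11 without background correction. The summed linear signal of the neutrophil markers was 265 to 461 in GATA1-LSK and 245 to 297 in CMP, and that of the B and plasma cell markers 2761 to 4136 and 3145 to 3742. In the macrophage list of 10 only Axl was called (1.86 ± 0.22), while C1qa (-0.07) and C1qb (0.48) did not pass, and the sums were 2067 to 2986 and 1669 to 1954. In the stroma and endothelium list of 12 only Bgn was called, with sums of 1334 to 1861 and 953 to 1276, and the probes of Col1a1, Dcn, Lum and Cdh5 were detected on none of the 8 arrays. In the T and NK cell list of 5 only Thy1 was called, with sums of 13228 to 18468 and 15137 to 17407, and Cd3d, Cd3e, Cd3g, Cd4 and Cd8a were detected on none of the 8 arrays. The neutrophil genes Ngp, Mmp8 and Retnlg and the B cell gene Pax5 were likewise undetected. The sums follow their brightest members and do not measure cell type content. The most abundant T and NK member was Cd8b1, at 12.88 in GATA1-LSK and 13.16 in CMP. Among B and plasma cell markers it was Xbp1, at 11.23 and 11.06. Bgn, in the stroma sum, stood at 9.59 and 5.39, and Axl, in the macrophage sum, at 9.64 and 7.78. In sorted populations fewer cells of a type and less RNA per cell cannot be told apart.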

How the data were processed

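Bone marrow populations were profiled on 22 Illumina bead arrays, and groups, replicate numbers and slides came from the labels. The authors deposited raw linear intensity values, some of them below 0, and the deposited detection p-value sets each probe against negative control beads. The series matrix holds intensity values that the authors normalised. The submitters' processing notes name BeadStudio, and the build and background step are not given in the sources used here. Intensities were corrected and quantile normalised with neqc (offset 16, log2) of limma 3.58.1 in R 4.3.3. Of 45281 probes, 34885 named 1 gene, 18 several and 10378 none, and 34807 symbols came from the current RefSeq table. Of 19764 probes detected on at least 4 arrays, 16575 named 1 gene, and the brightest stood for each of 11118 genes. A group-means model (17 residual degrees of freedom) was fitted with lmFit and eBayes, two-sided, with Benjamini-Hochberg adjustment over all genes, and was checked on simulated data. The number of arrays limits the precision.

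Named genes were 16 landmarks, the 15 largest non-overlapping called differences in each direction, up to 5 called genes of each direction per list (or the 2 largest where none was called) and the 5 brightest called of at least 2-fold, in all 110. Clone and predicted gene names (Rik, Gm, LOC and similar) were left out of the 15 largest and the 5 brightest. Further list members and the genes of the closing observations were named after their values were seen. Members, lists and tests were chosen with earlier results of these data known, so no list is independent support. Alternatives were other background, scaling, filter and probe choices, the authors' values, slide and replicate blocks (statmod 1.5.0), fewer arrays, other variance models and leaving out each array.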

Additional observations from a re-analysis of the deposited data

Results flagged for a closer look

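In 13 of 216 sets of 4 arrays (108 named genes in 2 populations), 1 array stood apart from its group by Dixon's criterion, which chance meets in about 1 in 20 sets. GATA1-LSK replicate 4, the only one of its group on slide 3, accounted for 7 of them. It was low for Ier3 (13.6), Klf2 (7.18), Ndn (7.18), Tgm2 (9.65) and Zg16 (4.47), and high for Csrp3 (8.17). It was also low for Car1 (4.41, against 4.57 to 4.59), which no GATA1-LSK array detected. CMP replicate 3 accounted for 4, being low for Cdk1 (9.13) and high for Cdkn1c (7.54), Mecom (6.77) and Hey1 (5.13), the last detected on no CMP array. The others were Irf8, high on CMP replicate 4 (8.98), and Dntt, high on GATA1-LSK replicate 1 (5.38). Of the called genes among these, Car1, Ier3, Klf2, Ndn, Tgm2, Zg16, Csrp3, Cdkn1c and Irf8 kept their call whichever array was left out.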

How the results depend on the processing

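Counts called between GATA1-LSK and CMP moved from 853 to 348 with median scaling (130 higher in GATA1-LSK, against 581), to 1370 without the arrays of slide 3 (519 higher in CMP, against 272) and to 3039 with array weights (1617 and 1422). Genes higher in CMP numbered 167 with quantile normalisation without background correction and 473 with the replicate block. The replicate block called 1278 genes in all, 846 of them among the 853, although replicate numbers did not pair the arrays (r of same-numbered arrays -0.34 to 0.26). Leaving out 1 array gave 605 to 956 genes, 442 to 608 higher in GATA1-LSK and 163 to 348 higher in CMP, with the lowest counts without GATA1-LSK replicate 2 (163 higher in CMP) and CMP replicates 1 (173) and 4 (179). A fit of the 8 arrays alone called 1136. No gene was called in the opposite direction under these settings. Of 89 called named genes, 20 lost the call in some fit without 1 array, 20 with slide as a fixed block, 31 with median scaling, and 18 without the arrays of slide 2 (Anxa3, Aurkb, Cdk1, F10, Fcgr2b, Gbp3, Gp9, Ifit3, Ifitm1, Ly6d, Mad2l1, Ndc80, Prdm16, Rbl1, Rrm1, Vdr, Ypel3 and Zyx). Signs turned for Camp with slide as a fixed block (-0.37), Cd34 with array weights (0.042), Gata2 with median scaling (-0.22), array weights (-0.17) and without CMP replicate 4 (-0.10, against up to 0.36 without CMP replicate 2), Itga2b with the mean of probes (0.079) and array weights (0.10), Kit with median scaling (-0.13) and array weights (-0.19), and Prdm16 bridged through GATA1+LSK (-0.46). The causes were not tested. Low signal limits genes near background. Folds are given as bounds only where no array of a population detected the gene.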

Other observations

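On all 4 GATA1-LSK arrays and on no CMP array, 68 genes were detected, 48 of them called, and 36 genes were detected the other way round, 23 of them called. Besides genes of the report, Col4a2, the collagen partner of Col4a1, had a GATA1-LSK level at least 8.66-fold higher (adjusted p = 4.1e-05), with levels of 8.21, 8.21, 8.64 and 7.07. Dusp4, a MAP kinase phosphatase gene, was at least 6.83-fold higher (adjusted p = 0.000669) and Ephb4, an ephrin receptor gene, at least 4.76-fold (adjusted p = 0.00153). In the other direction, Clec9a, a dendritic cell receptor gene, had a CMP level at least 2.97-fold higher (adjusted p = 2.02e-05), with CMP levels of 6.90, 6.76, 5.59 and 6.94. Col5a1, a fibrillar collagen gene, had a CMP level at least 4.55-fold higher (adjusted p = 0.00431).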
